A study of Mus musculus with 7 samples.

Results

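The genes described here are 40 genes of DNA replication and S phase, chosen by symbol from a list of the machinery that copies the genome, out of 31053 genes in the deposited matrices. All 40 symbols were found, once each. They comprise 10 helicase genes (Mcm2 to Mcm7, Mcm10, Gins1, Gins2, Cdc45), 5 licensing genes (Cdc6, Cdt1, Gmnn, Orc1, Orc6), 12 genes of the polymerases and the sliding clamp (Pcna, Pclaf, Fen1, Lig1, Pola1, Pold1, Pole, Prim1, Rfc2, Rfc3, Rfc4, Rpa2), 5 genes of nucleotide supply (Rrm1, Rrm2, Tyms, Tk1, Dut), 4 chromatin genes (Chaf1a, Chaf1b, Uhrf1, Slbp) and 4 regulators of entry into S phase (Ccne1, Ccne2, E2f1, Cdk4). They were measured by 10x Genomics 3' single-cell RNA sequencing in primary cultures from the hippocampus of newborn (P0) mice, after 1, 3, 5 and 7 days in vitro (DIV1, DIV3, DIV5 and DIV7). There was 1 library at DIV1 and 2 at each later day. All cultures were trypsin-dissociated hippocampi plated on poly-D-lysine in medium with serum and B-27 supplement, and the labels name no further treatment. The labels give no strain, sex or number of animals, and do not say whether the libraries of a day came from separate cultures, so the p-values below measure only the spread between these libraries. The labels name the cells as neurons, yet also list glial, ciliated, mural, endothelial and Cajal-Retzius cells in every sample.

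Before a cell divides it must copy its DNA. In G1, ORC, Cdc6 and Cdt1 load the Mcm2-7 ring onto origins. At the start of S phase, Cdc45 and the GINS proteins turn the ring into an active helicase, and polymerases held by the Pcna clamp copy the strands. Transcription of most of these genes is under E2F factors, which are released when cyclin-dependent kinases phosphorylate Rb, so their transcripts mark cells in late G1 and S phase. In the newborn hippocampus, radial glia, astrocytes, neuronal intermediate progenitors, oligodendrocyte precursors and microglia divide, whereas neurons do not.

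Promoters of the members are shown because E2F sites are the textbook link between these genes. The RefSeq promoter table (build GRCm38.p6) spans 250 bases before and 50 bases after each gene's start, and it matched 33 of the 40 members. E2F-type words were searched on both strands: TTTCCCGC, TTTCGCGC, TTTGCCGC and TTTGGCGC. At least 1 of them was found in 13 of the 33 matched member genes (39.4%), against 2.6% of 27025 genes in the table. The 13 were Mcm3, Mcm5, Mcm6, Mcm7, Cdc6, Cdt1, Orc1, Pclaf, Lig1, Pola1, Pold1, Rfc3 and Uhrf1. The CCAAT word was found in 60.6% of the matched members and 41.1% of all genes. The windows of 6 members are printed 5′ to 3′ on the gene's strand, with every E2F-type word in capitals. They are those of 3 helicase genes, a clamp loader, a clamp partner and a licensing factor.
Mcm3: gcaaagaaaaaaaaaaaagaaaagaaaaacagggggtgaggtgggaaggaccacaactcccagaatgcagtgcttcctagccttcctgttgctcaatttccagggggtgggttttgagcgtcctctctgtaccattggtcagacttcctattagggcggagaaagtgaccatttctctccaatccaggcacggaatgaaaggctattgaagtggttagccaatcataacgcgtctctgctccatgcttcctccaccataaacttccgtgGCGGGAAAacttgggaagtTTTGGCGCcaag
Mcm5: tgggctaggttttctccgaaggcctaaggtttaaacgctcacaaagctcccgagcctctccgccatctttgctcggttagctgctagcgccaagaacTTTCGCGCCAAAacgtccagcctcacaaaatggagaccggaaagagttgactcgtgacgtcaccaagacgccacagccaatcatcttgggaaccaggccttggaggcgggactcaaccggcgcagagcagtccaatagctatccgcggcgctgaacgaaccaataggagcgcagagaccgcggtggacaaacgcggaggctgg
Mcm6: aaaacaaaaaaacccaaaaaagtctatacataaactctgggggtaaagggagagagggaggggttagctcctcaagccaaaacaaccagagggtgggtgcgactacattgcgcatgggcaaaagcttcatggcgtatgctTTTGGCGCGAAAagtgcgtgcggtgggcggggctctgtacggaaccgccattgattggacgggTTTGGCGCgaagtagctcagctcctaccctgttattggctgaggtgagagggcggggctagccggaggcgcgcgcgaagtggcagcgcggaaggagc
Rfc3: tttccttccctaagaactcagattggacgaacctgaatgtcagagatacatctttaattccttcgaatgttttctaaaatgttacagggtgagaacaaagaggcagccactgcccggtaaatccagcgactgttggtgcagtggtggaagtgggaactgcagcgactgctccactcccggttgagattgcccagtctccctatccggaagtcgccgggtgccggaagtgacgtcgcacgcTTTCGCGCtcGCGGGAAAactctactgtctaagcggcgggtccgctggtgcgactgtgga
Pclaf: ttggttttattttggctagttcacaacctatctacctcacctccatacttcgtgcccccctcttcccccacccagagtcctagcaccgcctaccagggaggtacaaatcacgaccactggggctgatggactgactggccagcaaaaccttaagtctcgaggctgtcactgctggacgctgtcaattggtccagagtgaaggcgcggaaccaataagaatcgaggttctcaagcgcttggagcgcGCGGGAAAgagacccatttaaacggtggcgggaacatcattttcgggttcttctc
Cdc6: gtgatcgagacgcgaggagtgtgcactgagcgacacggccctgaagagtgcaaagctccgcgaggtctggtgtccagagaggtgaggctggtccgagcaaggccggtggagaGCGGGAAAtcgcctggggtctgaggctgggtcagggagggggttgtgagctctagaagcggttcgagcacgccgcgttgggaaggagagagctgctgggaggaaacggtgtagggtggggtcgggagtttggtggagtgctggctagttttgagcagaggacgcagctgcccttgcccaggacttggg
The Mcm3 window lies at chr1:20820263-20820562 on the minus strand, that of Mcm5 at chr8:75109259-75109558 on the plus strand and that of Mcm6 at chr1:128359656-128359955 on the minus strand. The Rfc3 window lies at chr5:151651159-151651458 on the minus strand, that of Pclaf at chr9:65890073-65890372 on the plus strand and that of Cdc6 at chr11:98907901-98908200 on the plus strand. In Mcm5, 2 words overlap at offsets -153 and -149 from the gene's start, and in Mcm6 words overlap at -110 and -106 with a further one at -47. In Pclaf the single word lies at -5. A match describes these letters only and says nothing of binding in these cells.

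The 7 matrices held 28846 barcodes, of which 26709 passed the filter: 500 genes or more detected, and no more than 10% of UMIs mitochondrial (UMIs being unique molecular identifiers, one per captured transcript). The filter removed between 2.29% and 19.0% of barcodes per library, most in DIV7 replicate 1. Median depth of kept cells ran from 7142.5 UMIs at DIV1 to 20267 UMIs in DIV3 replicate 1. Among kept cells, 401 barcodes occurred in more than 1 library. Cells were clustered without the members and without 4 further cell cycle lists, and clusters were named from fixed marker genes. DIV3 replicate 1 stood apart: 2455 of the 2542 cells of 1 radial glia cluster (cluster 25) came from it, and so did 437 of 468 cells of a fibroblast cluster. No cluster was named endothelial. The only one with endothelial genes such as Cldn5 among its leading genes, 192 cells all from DIV1, was also led by erythroid genes and stayed unnamed.

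A cell was said to carry S-phase transcripts when it held 8 or more UMIs of the members other than Cdk4, after each cell was thinned to 3000 UMIs. The 1338 cells below that depth were left out. Cdk4 was not counted because it is expressed widely outside S phase. The threshold makes a range and not a type of cell: among radial glia or astrocyte-like cells, 295 held exactly 7 such UMIs and 234 exactly 8. S-phase transcripts were found mainly in dividing lineages. Over all cells the share that carried them was 7.66% at DIV1, 18.4% and 19.0% in the DIV3 libraries, 17.1% and 13.1% in those of DIV5, and 5.92% and 3.75% in those of DIV7. Glutamatergic neuron-like cells were taken as the background, since neurons do not divide. Their share was 0.0822% at DIV1, 0.952% and 0.570% in the DIV3 libraries, 0.643% and 1.56% in those of DIV5, and 0 of 149 and 0 of 57 cells in those of DIV7. Counts of 0 there allow shares of up to 2.01% and 5.26%. Cajal-Retzius-like cells, early-born neurons, had 0 of 166 cells at DIV1, which allows up to 1.81%. These limits, and the exact intervals below, cover counting error only.

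Radial glia or astrocyte-like cells supplied most carrying cells in 5 of the 7 libraries and had a share that was highest, as a day mean, at DIV3 and lowest at DIV7. The share was 16.6% of 947 cells at DIV1, 27.1% of 2547 and 25.9% of 1491 cells in the DIV3 libraries, 24.0% of 2147 and 7.57% of 1811 cells in those of DIV5, and 9.05% of 1271 and 2.84% of 1973 cells in those of DIV7. The DIV7 libraries lay below both DIV3 libraries, and the 2 DIV5 libraries differed from each other more than those of DIV3 or of DIV7. The mean was 5.94% ± 4.39 at DIV7 and 26.5% ± 0.849 at DIV3 (SD, n = 2 each), a difference of -20.55 percentage points with no test, since it is a score over the members. Without thinning, the DIV7 shares were 30.3% and 7.94%, against 76.9% and 62.0% at DIV3, with median depths of 12055.5 and 9932.5 UMIs at DIV7 and of 22880 and 14140.5 UMIs at DIV3.

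**Figure D1:**
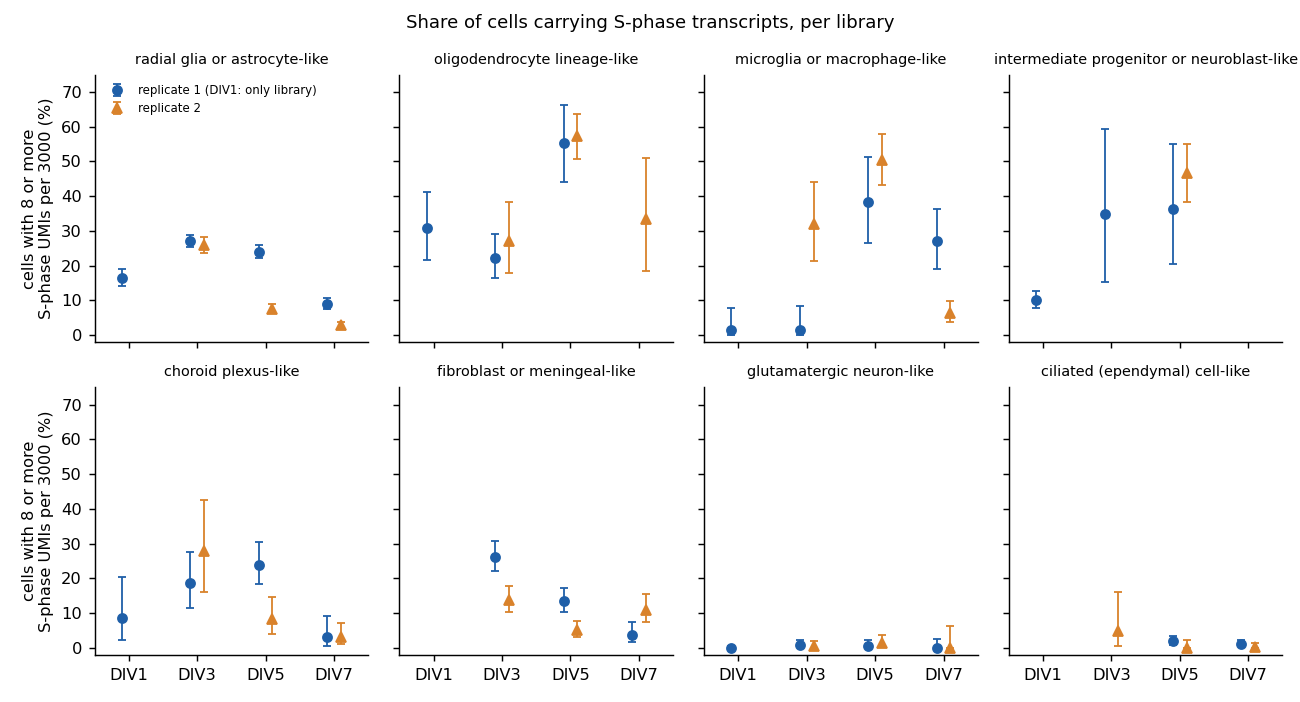
Share of cells (%, y axis) with 8 or more S-phase UMIs per 3000, by day in vitro (x axis) in 8 cell classes, for each library with at least 20 cells. Circles are replicate 1 or the only DIV1 library, triangles are replicate 2 and bars are exact 95% binomial intervals. Radial glia or astrocyte-like cells sit at 25.9% and 27.1% at DIV3 and at or below 9.05% at DIV7, oligodendrocyte lineage-like and microglia or macrophage-like cells have their highest values at DIV5, and glutamatergic neuron-like cells stay under 2%.

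The class was made of different clusters on different days. DIV3 replicate 1 lay almost wholly in cluster 25, in which 28.3% of 2534 cells carried S-phase transcripts and whose leading genes included the interferon-response genes Isg15, Bst2 and Ifit3. DIV3 replicate 2 and DIV5 replicate 1 lay mainly in cluster 18, whose leading genes were those of G2 and mitosis, and in cluster 17. In cluster 18, 49.4% of 2152 cells carried S-phase transcripts, against 3.83% of 1751 cells in cluster 17. The clusters that held most astrocyte-like cells of DIV5 replicate 2 and DIV7 carried few: 0.621% of 2093 cells in cluster 2, 0.331% of 1207 in cluster 26 and 0.364% of 825 in cluster 28. These values lie within the range of the neuronal shares, and cluster 2 and cluster 26 had the mature astrocyte genes Slc1a2, Gfap and Aldoc among their leading genes. Because cluster 18 was led by cell cycle genes rather than glial markers, the class was also described without it. Its share was then 1.75% and 0.756% at DIV7 and 27.1% and 6.04% at DIV3, a difference of -15.33 points. The DIV3 libraries then no longer lay close to each other. Leaving out cluster 18 kept 2560 of 2583 cells in DIV3 replicate 1 but 771 of 1506 in DIV3 replicate 2. The mean difference therefore joins a DIV3 library that hardly changed with one that lost many cells.

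The amount of S-phase transcript in a carrying cell varied less over the days than the share of such cells. Among radial glia or astrocyte-like cells that carried them, the mean was 14.8 S-phase UMIs per 3000 at DIV1, 13.2 and 13.7 in the DIV3 libraries, 13.9 and 15.4 in those of DIV5, and 13.4 and 14.3 in those of DIV7. The remaining cells of the class averaged 2.19 at DIV1, 2.42 and 2.44 in the DIV3 libraries, 1.87 and 0.896 in those of DIV5, and 1.42 and 0.807 in those of DIV7. The threshold itself keeps the carrying cells above 8, so these means describe the tail only. Many carrying cells also held at least 3 UMIs of the 15 G2/M markers (Mki67, Top2a, Cdk1 and others): 45.9% at DIV1 and between 75.7% and 88.8% in the 6 later libraries. Among cells that did not carry S-phase transcripts the share was 5.70% at DIV1, 30.1% and 27.8% in the DIV3 libraries, 21.3% and 2.93% in those of DIV5, and 21.1% and 5.22% in those of DIV7.

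**Figure D2:**
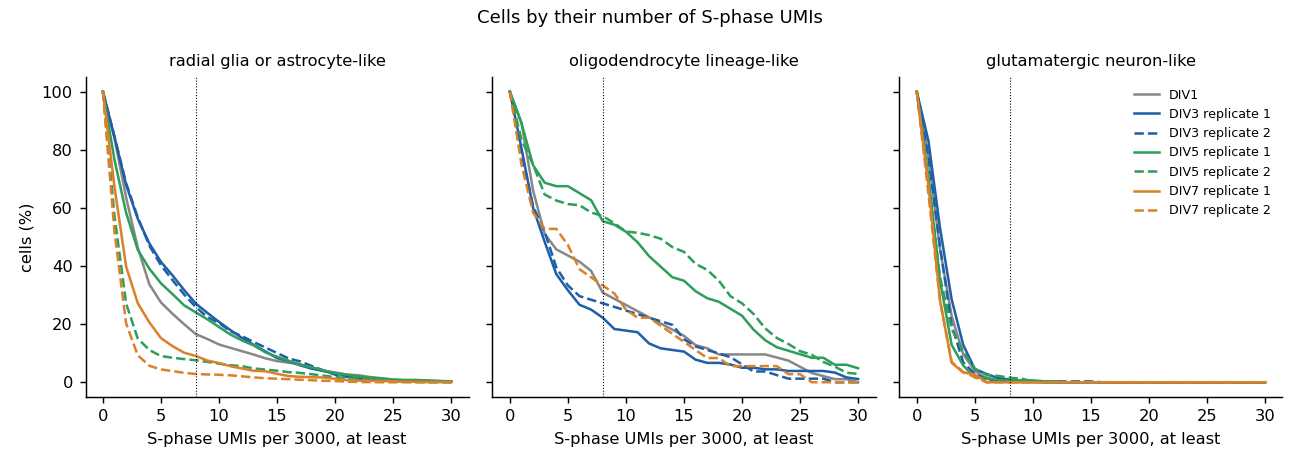
Cells (%, y axis) that hold at least the given number of S-phase UMIs per 3000 (x axis), in 3 cell classes, with 1 line per library (colour: day, dashed: replicate 2). The dotted line marks 8 UMIs. The lines of glutamatergic neuron-like cells are at or below 1.56% there, and those of oligodendrocyte lineage-like cells at DIV5 are at 55.4% and 57.2%.

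Within the class, members differed in how strongly they separated carrying from other cells. Each member was compared between cells that carried S-phase transcripts by the count of the other members and cells that did not, as the mean of the 7 libraries. Thymidine kinase Tk1 stood at 0.248 UMIs per 3000 in carrying cells and 0.0143 in the others, a ratio of 17.4, and cyclin E2 (Ccne2) had a ratio of 17.1. The licensing factor Cdc6 had a ratio of 14.8 and the histone chaperone subunit Chaf1b one of 14.2. Pclaf, which binds the Pcna clamp, stood at 2.71 UMIs in carrying cells and 0.256 UMIs in the others, a ratio of 10.6. The lowest ratios were those of Cdk4, the G1 kinase, at 1.78, the origin subunit Orc6 at 2.65 and the clamp loader subunit Rfc2 at 3.21. In all 7 libraries carrying cells had the higher value for 38 members, and in 6 libraries for Orc1 and Prim1. The cells were split by genes of the same process, so the ratios are a description, with no test.

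**Figure D3:**
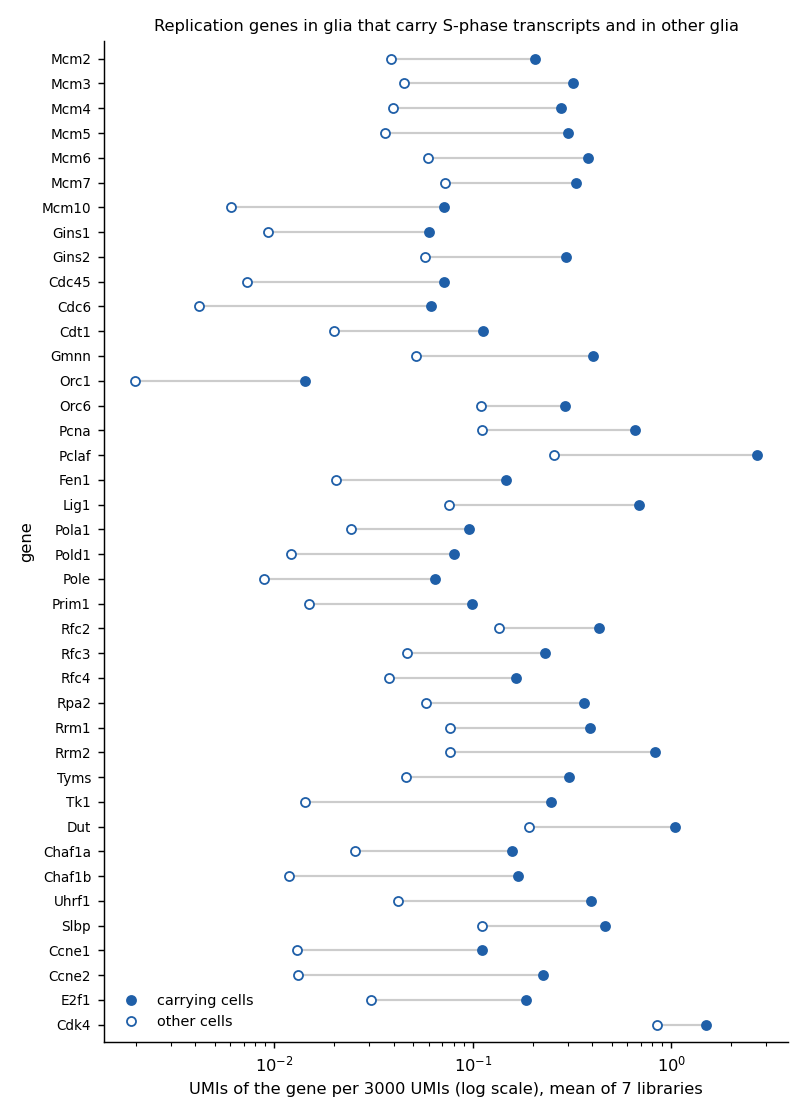
UMIs of each member per 3000 UMIs (x axis, log scale) in radial glia or astrocyte-like cells that carried S-phase transcripts by the other members (filled) and in the remaining cells of the class (open), as means of 7 libraries. Every filled point lies right of its open point, with the widest gaps at Tk1 and Ccne2 and the narrowest at Cdk4.

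For each class, the counts of its cells were then added up within each library and the sums compared between days with edgeR's quasi-likelihood test over all genes, with Benjamini-Hochberg adjustment. In such sums fewer cells in S phase and less transcript per cell cannot be told apart. In radial glia or astrocyte-like cells, 18 of the 40 members fell at DIV7 relative to DIV3 and none rose, where 6.96% of 15246 genes fell, 6.76% rose and 13.7% passed the test in either direction. All 40 log2 differences were negative (E2f1 turned to 0.0544 without DIV7 replicate 2), with a median of -1.76 beside 0.06 over all genes tested. Of the 40, 36 had an unadjusted p under 0.05, with no share of all genes at that level to set beside it. The count rests on few libraries. Alternative counts here and in the paragraphs on other classes are given without the share of all genes called in each fit. Dropping DIV3 replicate 1 or DIV7 replicate 2 left 0 calls, dropping DIV3 replicate 2 left 3 and dropping DIV7 replicate 1 left 8. It was 32 without DIV5 replicate 1 and 32 without DIV5 replicate 2. Among these sums the 15 G2/M markers together ran from 463.9 to 2050 CPM, and their part in the result was not tested. CPM is the count scaled to the sum's total. TMM factors enter the members' values below, except those of microglia or macrophage-like and intermediate progenitor or neuroblast-like cells.

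Of the 10 helicase genes 5 fell: Mcm3, Mcm5, Gins1, Gins2 and Cdc45. Mcm3, a subunit of the ring, stood at 13.7 and 8.24 CPM at DIV7, against 51.8 and 42.9 CPM at DIV3. Its log2 difference was -2.11 ± 0.40 (SE, edgeR adjusted p = 0.0274). Both DIV7 values lay far below both DIV3 values, and the DIV5 values of 27.8 and 14.2 CPM lay between or at the DIV7 level. Gins2, which completes the active helicase, stood at 16.2 and 9.34 CPM at DIV7, against 76.9 and 50.01 CPM at DIV3 (log2 difference -2.31 ± 0.46, edgeR adjusted p = 0.0285). Mcm7 had 29.5 and 18.2 CPM at DIV7, against 55.7 and 61.8 CPM at DIV3, with a log2 difference of -1.30 ± 0.37 (SE, edgeR adjusted p = 0.0604). Mcm6 had 23.5 and 12.4 CPM at DIV7, against 55.4 and 51.5 CPM at DIV3, with a log2 difference of -1.57 ± 0.47 (SE, edgeR adjusted p = 0.0663). Neither Mcm6 nor Mcm7 passed the test. The smallest difference of the helicase group was -0.85, in Mcm4.

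Of the 5 licensing genes Cdc6 and Orc6 fell. Cdc6, which loads the ring onto origins, stood at or below 1.85 CPM in both DIV7 libraries, against 6.12 and 6.83 CPM at DIV3 (log2 difference -2.11 ± 0.38, edgeR adjusted p = 0.0267). Orc6 had 26.3 and 19.4 CPM at DIV7, against 79.6 and 68.8 CPM at DIV3 (log2 difference -1.70 ± 0.28, edgeR adjusted p = 0.0251). In both the days did not overlap. Geminin (Gmnn), which blocks a second round of licensing by binding Cdt1, had 24.2 and 8.05 CPM at DIV7, against 79.9 and 59.2 CPM at DIV3, and did not pass (log2 difference -2.11 ± 0.64, edgeR adjusted p = 0.0698).

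Of the 12 polymerase and clamp genes 6 fell: Prim1, Rfc3, Rpa2, Pold1, Lig1 and Rfc2. Prim1, the primase subunit that makes the RNA primers, stood at 4.96 and 2.11 CPM at DIV7, against 24.9 and 16.4 CPM at DIV3 (log2 difference -2.55 ± 0.60, edgeR adjusted p = 0.0395). Rfc3, a subunit of the clamp loader, had 9.49 and 6.80 CPM at DIV7, against 48.8 and 33.0 CPM at DIV3 (log2 difference -2.33 ± 0.37, edgeR adjusted p = 0.0251). Rfc2, of the same complex, had a smaller difference of -1.06 ± 0.25. Pclaf had 109.6 and 42.1 CPM at DIV7, against 301.2 and 386.2 CPM at DIV3, with a log2 difference of -2.18 ± 0.58 (SE, edgeR adjusted p = 0.0511). The clamp Pcna had 46.7 and 28.7 CPM at DIV7, against 98.5 and 91.7 CPM at DIV3, with a log2 difference of -1.33 ± 0.37 (SE, edgeR adjusted p = 0.0556). Neither Pclaf nor Pcna passed the test.

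Of the 5 genes of nucleotide supply Tk1, Tyms and Dut fell. Tk1, which salvages thymidine, stood at 9.76 and 4.12 CPM at DIV7, against 51.9 and 31.3 CPM at DIV3. Its log2 difference of -2.59 ± 0.60 was the largest fall of the members in this class (SE, edgeR adjusted p = 0.0383). Tyms, thymidylate synthase, had 17.9 and 6.71 CPM at DIV7, against 69.2 and 49.8 CPM at DIV3 (log2 difference -2.28 ± 0.59, edgeR adjusted p = 0.0495). Dut, which removes dUTP, had 56.0 and 33.8 CPM at DIV7, against 191.7 and 161.6 CPM at DIV3 (log2 difference -1.98 ± 0.35, edgeR adjusted p = 0.0266). Rrm2, the small subunit of ribonucleotide reductase, had 59.4 and 25.4 CPM at DIV7, against 96.5 and 93.3 CPM at DIV3, and did not pass (log2 difference -1.16 ± 0.53, edgeR adjusted p = 0.167). Its DIV5 values of 105.2 and 41.4 CPM spanned the values of both other days.

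Of the 4 chromatin genes only Slbp, which binds histone mRNA, fell, with 35.1 and 24.4 CPM at DIV7, against 66.2 and 65.6 CPM at DIV3 (log2 difference -1.15 ± 0.29, edgeR adjusted p = 0.0474). Uhrf1, which guides maintenance methylation at replication forks, had 22.9 and 10.3 CPM at DIV7, against 36.8 and 50.7 CPM at DIV3, and did not pass (edgeR adjusted p = 0.0879). Of the 4 regulators Cdk4 fell, with 192.9 and 107.5 CPM at DIV7, against 519.3 and 350.8 CPM at DIV3 (log2 difference -1.54 ± 0.39, edgeR adjusted p = 0.0477). E2f1 had 22.0 and 8.24 CPM at DIV7, against 26.1 and 16.5 CPM at DIV3, so that the days overlapped (log2 difference -0.50 ± 0.68, edgeR adjusted p = 0.636). Its highest value was 39.8 CPM in DIV5 replicate 1. Cyclins E1 and E2 had log2 differences of -1.91 and -1.65 and did not pass.

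**Figure D4:**
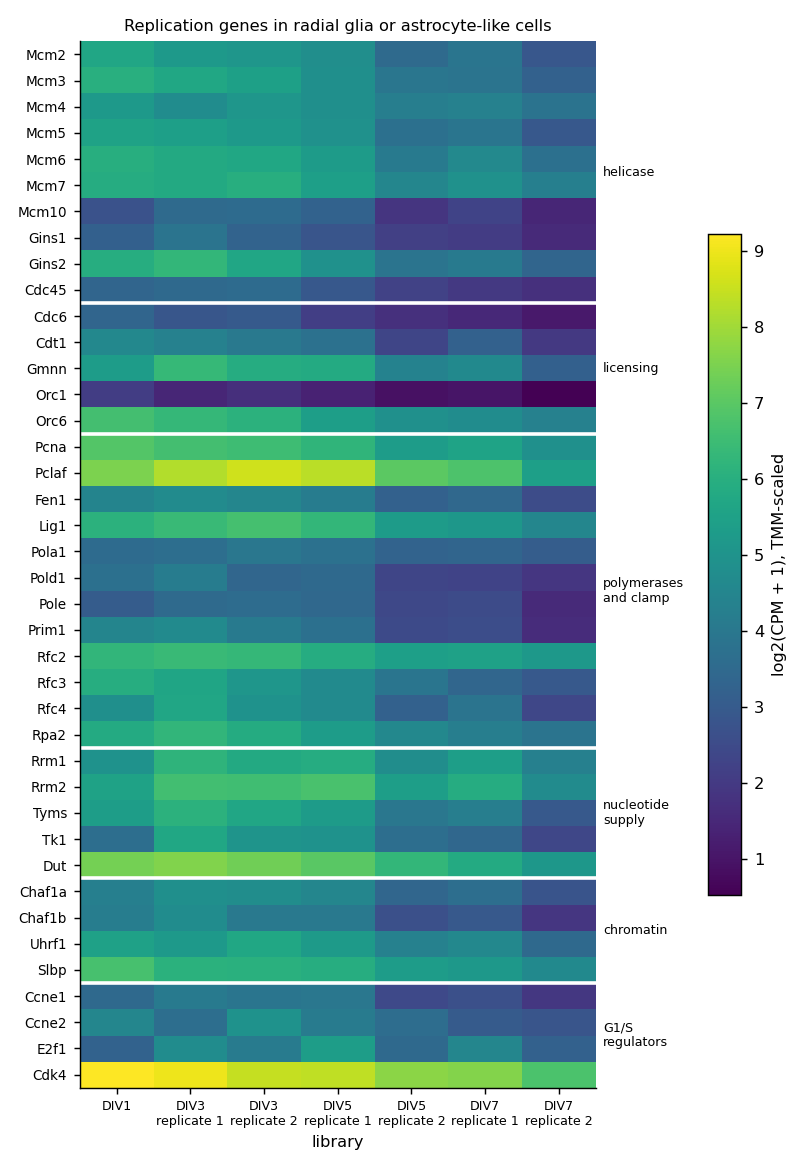
Level of each member (rows, grouped by role) in summed radial glia or astrocyte-like cells of each library (columns), as log2(CPM + 1) with TMM scaling. DIV1, DIV3 and DIV5 replicate 1 are mostly brighter than DIV5 replicate 2 and DIV7, as for Dut with 33.8 to 56.0 CPM at DIV7 against 161.6 to 191.7 CPM at DIV3, while E2f1 follows no such order.

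Other cell cycle lists in the same sums showed the following. Of 56 other replication and repair genes 18 fell and none rose at DIV7 relative to DIV3 in radial glia or astrocyte-like cells, with a median log2 difference of -1.22. The histone chaperone Nasp and the pyrophosphatase Dctpp1 had the smallest p, with log2 differences of -1.94 ± 0.23 and -1.88 ± 0.27. Of 45 G2 and mitosis genes 1 fell, the kinase subunit Cks1b (-1.83 ± 0.48, edgeR adjusted p = 0.0493), although the median was -1.38. Hmgb2, next by p, had -1.68 ± 0.45 (edgeR adjusted p = 0.0512). Of 21 Rb, E2F and D-type cyclin genes 4 fell and 1 rose. The growth factor-responsive Mycn (-2.48 ± 0.37) and cyclin D3, Ccnd3 (-1.07 ± 0.21), led them. Of the 7 inhibitors of cyclin-dependent kinases, which hold cells in G1, none passed edgeR's test, and Cdkn1c and Cdkn2d had an unadjusted p under 0.05. Their log2 differences were 0.14 for Cdkn1a, -0.07 for Cdkn1b, -1.78 for Cdkn1c, 0.27 for Cdkn2a, 0.003 for Cdkn2b, -0.15 for Cdkn2c and -1.35 for Cdkn2d. Cdkn1a, Cdkn1b, Cdkn2a, Cdkn2b and Cdkn2c changed sign under some alternatives. Cdkn1a, the p53 target p21, had 340.5 and 175.9 CPM at DIV7, against 296.0 and 171.7 CPM at DIV3, with overlapping days.

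At DIV3 relative to DIV1, none of the 40 members passed edgeR's test in radial glia or astrocyte-like cells, nor did any of the 15246 genes (0%). One member, Tk1, had an unadjusted p under 0.05, DESeq2 called 0 and the fit of these days' libraries alone called 1. Tk1 stood at 51.9 and 31.3 CPM at DIV3, against 11.7 CPM at DIV1, a log2 difference of 1.83 ± 0.76. Rrm2 stood at 96.5 and 93.3 CPM at DIV3, against 46.0 CPM at DIV1 (log2 difference 1.046 ± 0.67). Slbp had 66.2 and 65.6 CPM at DIV3, against 103.0 CPM at DIV1 (log2 difference -0.64 ± 0.35). Of the 40 differences 17 were negative, with a median of 0.12 beside 0.06 over all genes tested. The 45 G2 and mitosis genes had no negative difference and a median of 1.73, led by the kinetochore gene Nuf2 (1.90 ± 0.39) and Cdc25c (2.94 ± 1.11), of which 0 passed and 4 had an unadjusted p under 0.05. Orc4 (-0.87 ± 0.23) and Dctpp1 (-0.95 ± 0.32) led the other replication genes, and Mycn (-1.25 ± 0.40) and Myc (-1.32 ± 0.55) the Rb, E2F and cyclin D list, with none passing. Of the kinase inhibitors 0 passed and Cdkn1c (3.37 ± 1.052), Cdkn2b (2.73 ± 0.82) and Cdkn2c (1.59 ± 0.57) had an unadjusted p under 0.05. This comparison has 1 library at DIV1, which is assumed to vary like the other days, and it shares the DIV3 libraries with the comparison above.

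Neurons had little S-phase transcript but were not free of member RNA. In glutamatergic neuron-like sums, 37 members had enough counts to be tested (Mcm10, Cdc6 and Orc1 did not), and 11 fell at DIV7 relative to DIV3, where 5.05% of 12906 genes fell, 6.27% rose and 11.3% passed in either direction. The 11 were Cdk4, Lig1, Mcm6, Mcm7, Prim1, Tyms, Rfc3, Pclaf, Chaf1b, Gins1 and Rfc4. Of the 37 differences 33 were negative, with a median of -1.35 beside -0.02 over all genes. Cdk4 stood at 77.6 and 76.2 CPM at DIV7, against 281.7 and 208.1 CPM at DIV3 (log2 difference -1.67 ± 0.23, edgeR adjusted p = 0.0014). The days lay far apart, and the DIV5 values of 139.4 and 173.0 CPM lay between them. Pclaf had 1.67 and 4.57 CPM at DIV7, against 18.4 and 12.9 CPM at DIV3 (log2 difference -2.55 ± 0.63, edgeR adjusted p = 0.0336), on 11 UMIs over both DIV7 sums, and 49.1 CPM in DIV5 replicate 2. Chaf1b had 0.669 and 0.762 CPM at DIV7, against 6.17 and 3.31 CPM at DIV3 (edgeR adjusted p = 0.0360). Both DIV7 sums together held 3 of its UMIs, and the ratio of DIV7 over DIV3 was 0.144, with an exact 95% counting interval from 0.0290 to 0.441. Prim1 (-2.18), Rfc4 (-2.02) and Lig1 (-1.98) followed. Rrm1 was the highest, with 21.1 and 27.4 CPM at DIV7, against 14.8 and 7.90 CPM at DIV3, and did not pass (log2 difference 1.06 ± 0.35, edgeR adjusted p = 0.0721). This class, too, was made of different clusters on different days. Of its cells with 3000 UMIs or more, cluster 3 held 1208 of 1216 at DIV1. Cluster 14 held 376 of 420 and 291 of 351 in the DIV3 libraries. Cluster 13 held 148 of 149 and 57 of 57 in those of DIV7. A change of cluster and a change inside the cells cannot be told apart in these sums. The DIV7 sums rest on 156 and 60 cells. With at least 1000 genes and at most 5% mitochondrial UMIs, DIV7 replicate 1 kept 3 such cells, too few for a sum. DIV7 replicate 2 kept 32, so that stricter setting lost a library as well as cells. The count was 1 without DIV7 replicate 1 or without DIV7 replicate 2, 4 without DIV3 replicate 1, 3 with cells thinned to 3000 UMIs and 0 with a stricter cell filter (1000 genes or more, 5% mitochondrial UMIs or less). The 21 markers of radial glia and astrocytes summed to between 919.8 and 2202 CPM in these neuron sums, with 20 or 21 detected, and the 15 G2/M markers to between 50.6 and 145.9 CPM. The part of either in the result was not tested.

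**Figure D5:**
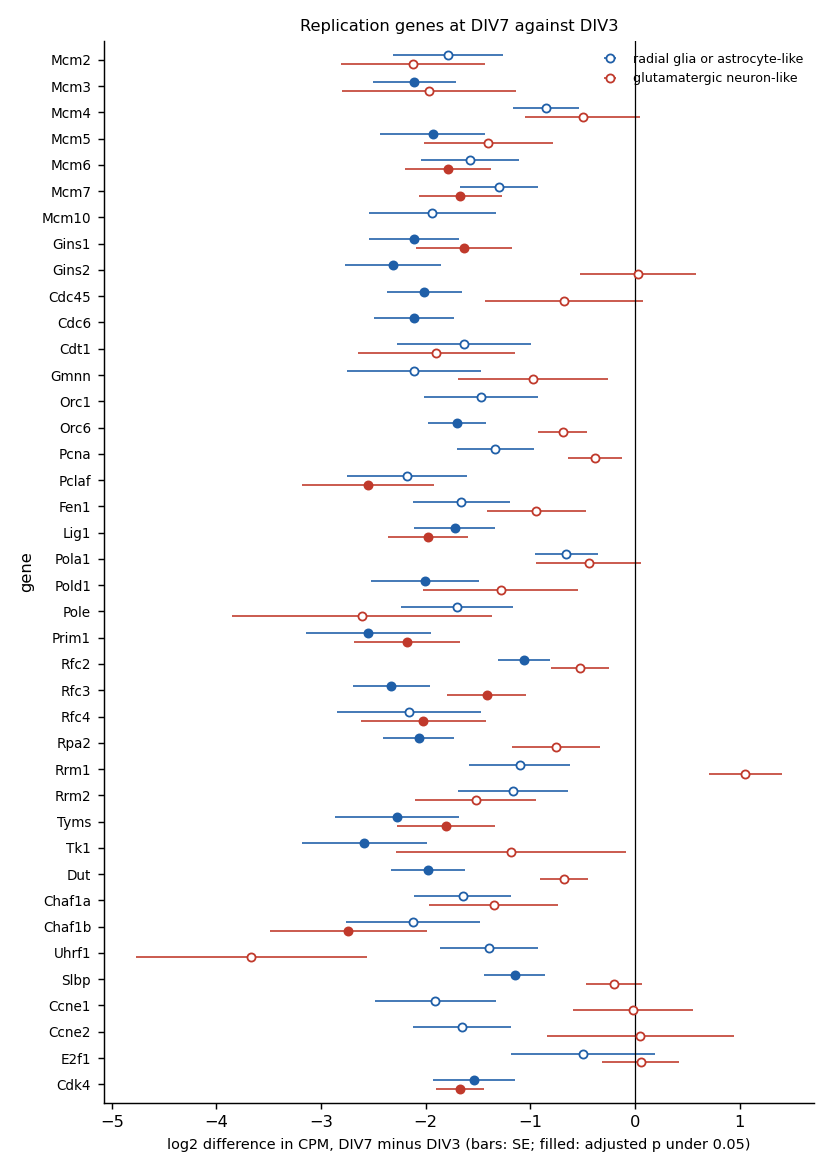
Log2 difference in CPM, DIV7 minus DIV3 (x axis), for each member in radial glia or astrocyte-like cells (blue) and glutamatergic neuron-like cells (red). Bars are SE and filled points passed the test at an adjusted p under 0.05. In radial glia or astrocyte-like cells all 40 points lie left of 0 (E2f1 turned to 0.0544 without DIV7 replicate 2), and in glutamatergic neuron-like cells Rrm1 stands furthest to the right, at 1.06.

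Of the other lists in neurons, 9 of 51 tested replication genes fell at DIV7 relative to DIV3, led by Nasp (-1.42 ± 0.27) and the polymerase subunit Pold2 (-1.53 ± 0.30). Of 44 G2 and mitosis genes 2 fell, Cenpa (-2.20 ± 0.54) and Smc4 (-1.49 ± 0.39). Of 18 Rb, E2F and cyclin D genes 3 fell, with Ccnd3 (-0.99 ± 0.25) and the phosphatase Cdc25a (-1.58 ± 0.44) first by p. Among the 7 kinase inhibitors Cdkn1c (p57) fell by 2.35 ± 0.57 on the log2 scale, with 12.7 and 6.09 CPM at DIV7, against 69.0 and 33.6 CPM at DIV3. The other inhibitors did not pass, among them Cdkn2c (-1.63 ± 0.56) and Cdkn1a (0.68 ± 0.26). At DIV3 relative to DIV1 none of the 37 members passed edgeR's test, where 0.465% of genes passed. DESeq2 called 0 as well, and 3 members had an unadjusted p under 0.05: Mcm7 (-0.85 ± 0.36), Ccne1 (1.58 ± 0.66) and Cdt1 (-1.38 ± 0.54). None passed of the other lists' leading genes Tcf19, Mcmbp, Kif2c, Cks2, Rb1 and E2f3. The inhibitor Cdkn2a rose (edgeR adjusted p = 0.0164), with 7.96 and 9.19 CPM at DIV3, against 0.0792 CPM at DIV1. The DIV1 sum held 1 of its UMIs, and the ratio of DIV3 over DIV1 was 99.5, with an exact 95% counting interval from 17.5 to 3960.

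Over the 7 libraries together, radial glia or astrocyte-like cells had more of nearly every member than glutamatergic neuron-like cells. With the library as a block, 36 of 39 tested members were higher in the glial class by edgeR's test, where 37.8% of 13035 genes were higher and 71.5% passed in either direction. The median log2 difference was 1.85, beside 0.08 over all genes tested. The 21 glial markers summed to between 11970 and 51980 CPM in the glial sums, and the 12 neuronal markers there to between 96.5 and 144.4 CPM. The largest differences were those of Pclaf (3.94 ± 0.44), Tk1 (3.90 ± 0.39), Gmnn (3.85 ± 0.36), Mcm3 (3.56 ± 0.30) and Uhrf1 (3.49 ± 0.38). Pclaf averaged 209.2 ± 124.1 CPM in the glial class and 16.4 ± 15.7 CPM in the neurons (SD, n = 7 libraries each) and was higher in the glia in every library. Mcm3 averaged 30.98 ± 18.9 CPM in the glia and 2.62 ± 1.35 CPM in the neurons (SD, n = 7 each). The 3 members that did not pass were Dut (-0.01), Gins1 (-0.07) and Orc6 (-0.18), and each changed sign under some alternatives. Dut averaged 115.2 ± 55.2 CPM in the glia and 105.1 ± 22.3 CPM in the neurons, and Orc6 50.6 ± 26.2 CPM in the glia and 52.3 ± 11.6 CPM in the neurons (SD, n = 7 each). Other named members that passed were Slbp (0.68), E2f1 (0.67), Cdk4 (0.91), Pcna (1.06), Mcm6 (1.75), Mcm7 (1.85) and Rrm2 (2.88). Not all that passed were higher in the glia in every library. Rfc3 was so in 5 of 7, and Slbp, Rrm1, Ccne1, Cdc45 and Prim1 in 6 of 7. In DIV7 replicate 2, Rrm1 stood at 20.7 CPM in the glia and 27.2 CPM in the neurons. Slbp stood there at 26.9 CPM in the glia and 37.7 CPM in the neurons. By role, 9 of 10 helicase genes, 3 of 4 tested licensing genes, 12 of 12 polymerase and clamp genes, 4 of 5 genes of nucleotide supply, all 4 chromatin genes and all 4 regulators were higher, although Prim1 turned to -0.0956 without the cluster led by G2/M genes. In the other lists, Tcf19 (2.93 ± 0.18) and Tipin (1.81 ± 0.14) led the 47 of 56 replication genes that were higher, Nuf2 (3.73 ± 0.25) and Bub1b (2.77 ± 0.25) the 44 of 45 mitotic genes, and Ccnd2 (3.40 ± 0.15) and E2f5 (2.19 ± 0.14) the 15 of 21 Rb, E2F and cyclin D genes. The kinase inhibitors Cdkn2c (3.95 ± 0.34), Cdkn2b (3.48 ± 0.44) and Cdkn1a (2.71 ± 0.33) were higher in the glia, and Cdkn2d (-1.38 ± 0.22), Cdkn1c (-0.91 ± 0.31) and Cdkn1b (-0.40 ± 0.10) lower, while Cdkn2a (0.23) did not pass.

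Over all cells of a library, 38 of the 40 members fell at DIV7 relative to DIV3, all but Pola1 (edgeR adjusted p = 0.0592) and E2f1, where 11.7% of 17433 genes fell and 23% passed in either direction. The median log2 difference was -1.61. The falls of Prim1 (-2.38 ± 0.33), Tyms (-2.34 ± 0.32), Tk1 (-2.11 ± 0.30), Rfc4 (-2.10 ± 0.44) and Cdc6 (-2.10 ± 0.32) were the 5 largest. Pclaf stood at 71.7 and 55.9 CPM at DIV7, against 263.8 and 279.2 CPM at DIV3, with the DIV5 values of 229.6 and 211.7 CPM closer to DIV3. The count was 0 without DIV3 replicate 1, 9 without DIV7 replicate 2 and 11 with the stricter cell filter. These sums mix a change in the cells present with change inside them. In the same fit 39 of 56 other replication genes fell, led by Ung (-2.54 ± 0.30) and Cdca7 (-2.36 ± 0.29), and 19 of 45 G2 and mitosis genes, led by Cks1b (-1.46 ± 0.21) and Cdca8 (-2.37 ± 0.36). Of the Rb, E2F and cyclin D genes 6 fell and 2 rose, with Cdc25a (-1.32 ± 0.22) and Mycn (-1.63 ± 0.27) first by p. The inhibitors Cdkn1c (-1.49 ± 0.27) and Cdkn2d (-1.25 ± 0.26) fell.

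At DIV3 relative to DIV1, 3 members rose over all cells, where 1.7% of genes rose, 0.901% fell and 2.6% passed in either direction. Tk1 stood at 43.1 and 25.4 CPM at DIV3, against 6.72 CPM at DIV1 (log2 difference 2.35 ± 0.40, edgeR adjusted p = 0.0430). Gmnn had 66.6 and 45.5 CPM at DIV3, against 16.3 CPM at DIV1 (log2 difference 1.78 ± 0.34, edgeR adjusted p = 0.0459). Pclaf had 263.8 and 279.2 CPM at DIV3, against 90.1 CPM at DIV1 (log2 difference 1.59 ± 0.27, edgeR adjusted p = 0.0430). All 40 differences were positive, with a median of 0.78, and 16 had an unadjusted p under 0.05, a count without a background over all genes. The count was 0 when any 1 of the DIV3 and DIV7 libraries (replicate 1 or 2 of either day) was left out and 6 when DIV5 replicate 1 or DIV5 replicate 2 was. Of the other lists, Asf1b (2.17 ± 0.42) rose and Usp1 (1.49 ± 0.30, edgeR adjusted p = 0.0504) did not pass, 5 of 45 mitotic genes rose, led by Nusap1 (1.92 ± 0.29) and Nuf2 (2.21 ± 0.33), and Mycn fell (-1.73 ± 0.31), while Ccnd3 (0.98 ± 0.24) did not pass. Of the kinase inhibitors Cdkn2b (4.36 ± 0.41), Cdkn2a (3.97 ± 0.54) and Cdkn2c (2.21 ± 0.39) rose. Cdkn1c (1.24), Cdkn1a (0.76), Cdkn2d (0.58) and Cdkn1b (-0.16) did not pass, and the last changed sign without DIV3 replicate 1 (0.17). Cdkn2b, the INK4 inhibitor p15, stood at 35.9 and 23.7 CPM at DIV3, against 1.45 CPM at DIV1.

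Oligodendrocyte lineage-like cells had their highest shares at DIV5. The share with S-phase transcripts was 30.9% of 94 cells at DIV1, 22.2% of 180 and 27.2% of 81 cells in the DIV3 libraries, 55.4% of 83 and 57.2% of 243 cells in those of DIV5, and 33.3% of 36 cells in DIV7 replicate 2. DIV7 replicate 1 had 7 such cells and gives no share. Both DIV5 libraries lay above all others. Their exact intervals ran from 44.1% to 66.3% and from 50.7% to 63.5%, and those of DIV3 reached 29.0% and 38.2%. These intervals cover counting error within a library and leave out the spread between libraries, so they do not compare the days. Carrying cells held a mean of 18.2 and 19.2 S-phase UMIs per 3000 at DIV5, against 15.9 in both DIV3 libraries. In sums over these cells, Pclaf averaged 970.5 ± 96.3 CPM at DIV5 and 369.7 ± 126.8 CPM at DIV3 (SD, n = 2 each), a log2 difference of 1.4 ± 0.27 (edgeR adjusted p = 0.103). Rrm2 averaged 247.4 ± 21.3 CPM at DIV5 and 97.1 ± 5.20 CPM at DIV3 (SD, n = 2 each), a log2 difference of 1.34 ± 0.23 (edgeR adjusted p = 0.0956). Neither gene passed the test. Gmnn (1.25 ± 0.28), Mcm6 (0.75 ± 0.27), Pcna (0.67 ± 0.24) and Mcm7 (0.47 ± 0.25) had positive differences as well. In the fit without a replicate term, none of the 39 members tested passed edgeR's test, nor did any of 10081 genes (0%). All 39 differences were positive, 25 had an unadjusted p under 0.05, DESeq2 called 1 and the median was 0.86 beside 0.02 over all genes. The fit used 6 libraries, with DIV7 replicate 1 dropped. None of the other lists' genes passed, and 25 of 45 G2 and mitosis genes had an unadjusted p under 0.05. How many of all genes had such a p is not given, so neither count of 25 has a background. The 13 oligodendrocyte lineage markers summed to between 1323 and 16450 CPM in these cells and the 21 radial glia and astrocyte markers to between 7287 and 13420 CPM, and the part of the glial RNA was not tested. These values depend on how the cells were grouped. With cell cycle genes kept in the clustering, 233 of the 289 carrying cells moved to a cluster with no name and 32 stayed in the class, whose shares were then 1.39% and 5.44% at DIV5, against 5.04% and 2.90% at DIV3. Log2 differences of members turned as well, to -0.22 for Pclaf, -0.28 for Rrm2, -0.21 for Mcm6 and -0.86 for Gmnn.

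Microglia or macrophage-like cells also had their highest shares at DIV5. The share was 1.47% of 68 cells at DIV1, 1.59% of 63 and 31.9% of 72 cells in the DIV3 libraries, 38.5% of 65 and 50.5% of 192 cells in those of DIV5, and 27.0% of 111 and 6.36% of 283 cells in those of DIV7. The libraries within DIV3 and within DIV7 lay far apart. Pclaf was likewise highest at DIV5, with 11.5 CPM at DIV1, 57.6 and 239.6 CPM in the DIV3 libraries, 354.3 and 476.1 CPM in those of DIV5, and 206.5 and 55.7 CPM in those of DIV7. Tk1 had 2.30 CPM at DIV1, 9.71 and 82.2 CPM in the DIV3 libraries, 88.6 and 115.7 CPM in those of DIV5, and 71.2 and 17.4 CPM in those of DIV7. The 15 microglial markers were all detected in every library and summed to between 16770 and 35480 CPM, while the 21 radial glia and astrocyte markers summed to between 6033 and 39790 CPM in the same cells. The part of this glial RNA in the shares was not tested.

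Intermediate progenitor or neuroblast-like cells, the neuronal precursors marked by Eomes and Neurod1, carried S-phase transcripts in 10.1% of 635 cells at DIV1, 35.0% of 20 cells in DIV3 replicate 1, and 36.4% of 33 and 46.6% of 148 cells at DIV5. DIV3 replicate 2 had 16 of them and DIV7 at most 6 per library, so no share is read there. They formed 2 clusters. In the smaller one, with Insm1, Neurog2 and Pclaf among its leading genes, 85.8% of 176 cells carried S-phase transcripts, against 1.61% of 683 cells in the other. Pclaf stood at 253.7 CPM at DIV1, 429.3 CPM in DIV3 replicate 1, and 857.2 and 1314 CPM at DIV5 in the class. At DIV1 this class gave 22.4% of all carrying cells and in DIV5 replicate 2 it gave 14.4%. In DIV5 replicate 2 the carrying cells were spread over lineages, with 28.5% from radial glia or astrocyte-like, 28.9% from oligodendrocyte lineage-like and 20.2% from microglia or macrophage-like cells. In DIV5 replicate 1 radial glia or astrocyte-like cells gave 72.0%.

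Fibroblast or meningeal-like cells had shares of 26.3% and 13.7% in the DIV3 libraries, 13.5% and 5.17% in those of DIV5, and 3.81% and 11.0% in those of DIV7, and at DIV7 the replicates ran opposite to those of the radial glia. Choroid plexus-like cells had 8.51% at DIV1, 18.6% and 28.0% in the DIV3 libraries, 24.0% and 8.26% in those of DIV5, and 3.23% and 3.21% in those of DIV7. Ciliated (ependymal) cell-like cells, which are past division, had 4.76% of 42 cells in DIV3 replicate 2, 1.93% of 519 and 0 of 170 cells at DIV5, and 1.14% of 705 and 0.236% of 423 cells at DIV7. The 0 allows a share of up to 1.77%. In DIV3 replicate 2 the ciliated share rests on 2 cells and lay above that library's neuronal share of 0.570%, and the ciliated shares at DIV5 and DIV7 were at or below 1.93%, where the neuronal shares were at or below 1.56%. Of the ciliated cells, 14.3% in DIV3 replicate 2, 20.8% and 10.6% at DIV5 and 18.7% and 15.6% at DIV7 held at least 3 UMIs of the G2/M markers.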

How the data were processed

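Single-cell RNA sequencing of cultured P0 mouse hippocampal cells gave 7 matrices of UMI counts per gene and barcode, deposited by the authors without normalization. They were made with Cell Ranger 4.0.0 and the mm9 build, per the submitters' processing notes, while the file headers name software 3.0.2. Promoter sequences are RefSeq's on GRCm38.p6, and no coordinates of the files were used. The members and the lists were chosen with earlier results of these data known.

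Barcodes needed 500 detected genes or more and a mitochondrial share of 10% or less, which left 2838 to 5144 cells per library. Cells were clustered with scanpy 1.11.5 (Python 3.11.15, igraph 0.11.9) on 2000 variable genes, without the members and the other cell cycle lists, with 30 principal components, 15 neighbours and Leiden resolution 1. Clusters were named from fixed marker lists, so class names are rebuilt here. Scrublet called 126 of 26709 cells, which is too few to have worked, so doublets were kept, and removal of the 908 highest scores was an alternative. S-phase shares were taken after thinning to 3000 UMIs, with exact (Clopper-Pearson) 95% intervals and a limit of 3 counts where none was seen. PCR and capture noise are not covered by these.

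Counts summed per library and class (at least 20 cells) were tested with edgeR 4.0.16 in R 4.3.3 (quasi-likelihood, TMM, all days in 1 fit, Benjamini-Hochberg over all genes tested, threshold 0.05). The day fits left 3 residual degrees of freedom, the oligodendrocyte fit 2 and the lineage fit, with the library as a block, 6. DESeq2 1.42.0 was an alternative. Counts at an unadjusted p under 0.05 are given without the share of all genes at that level. An SE is the absolute log2 difference divided by the square root of edgeR's F. On simulated counts for 15246 genes of the radial glia or astrocyte-like DIV7 minus DIV3 comparison, 9 of 100 genes with a log2 change of 1 and 85 of 100 with a log2 change of 2 were recovered, with 2 false calls. Named are the members with the highest counts per role, those past the test (the 5 largest changes where over 10), the 2 genes of smallest p per other list and all kinase inhibitors. The oligodendrocyte comparison and the description without the cluster led by mitotic genes were added after the data were seen.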

Additional observations from a re-analysis of the deposited data

Results flagged for a closer look

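In oligodendrocyte lineage-like cells the share that carried S-phase transcripts was 31.62 percentage points higher at DIV5 than at DIV3 (both libraries above both), whereas in radial glia or astrocyte-like cells it was -10.69 points (both libraries below both). In microglia or macrophage-like cells the same difference was 27.73 points, again with both DIV5 libraries above both DIV3 libraries. The opposite directions drew attention to these classes, and the difference between classes was not tested. The oligodendrocyte value depended on the clustering, as described with its shares. Shares of microglia or macrophage-like and intermediate progenitor or neuroblast-like cells under other clusterings are not given here. The radial glia or astrocyte-like separation did not hold under 3 alternatives. DIV5 replicate 1 stood at 34.8%, against 31.7% and 29.8% in the DIV3 libraries, with the stricter cell filter, at 29.1%, against 27.3% and 28.8%, at Leiden resolution 2, and at 27.5%, against 25.7% and 29.7%, with cell cycle genes kept in the clustering.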

How the results depend on the processing

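Small sums and few libraries limit these results. With 2 libraries a day, leaving out 1 library moved the number of members called in radial glia or astrocyte-like cells at DIV7 relative to DIV3 between 0 and 32, against 18. That number was 9 with total-count scaling, 34 with DESeq2's Wald test, 31 with only these days' libraries, 11 with the stricter cell filter (at least 1000 genes and at most 5% mitochondrial UMIs), 9 at Leiden resolution 2 and 2 with cell cycle genes kept in the clustering. At DIV3 relative to DIV1 it was 1 with only these days' libraries and 0 without any 1 library. In glutamatergic neuron-like cells at DIV7 it was 17 with no filter on low counts, 0 with the stricter cell filter, 3 with thinned cells, 5 at Leiden resolution 2 and 1 to 16 without 1 library, against 11. Over all cells at DIV7 it was 11 with the stricter cell filter and 0 to 38 without 1 library, against 38. Over all cells at DIV3 it was 7 with no filter, 0 with total counts, 13 with DESeq2, 9 with only these days' libraries, 0 with the stricter filter and 0 to 6 without 1 library, against 3. In oligodendrocyte lineage-like cells it was 9 with no filter, 1 with DESeq2, 2 with the stricter filter, 1 with thinned cells and 0 without any 1 library, against 0. The glia against neuron count was 34 to 36 without 1 library. The cause was not tested in any of these. Here and above, member counts under alternatives are given without the share of all genes called in each fit. They show how far the count moves and are no result about the members alone. In neuron-like cells the stricter filter left 1 DIV7 sum, of 32 cells, since DIV7 replicate 1 kept 3.

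The labels do not say that replicate numbers pair libraries across days. Same-numbered libraries deviated together, with correlations of 0.322 for DIV3 and DIV5, 0.165 for DIV3 and DIV7 and 0.417 for DIV5 and DIV7 over 17490 genes, but with 2 numbers this is a hint only. With a replicate block, at DIV7, 35 members were called in radial glia or astrocyte-like cells (33.0% of all genes tested in that fit), 15 in glutamatergic neuron-like cells (21.0% of all genes; 14 members lower and 1 higher) and 39 over all cells (35.2%). In oligodendrocyte lineage-like cells at DIV5 the block called 17 members (5.29% of all genes), against 0 without it.

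The share difference of -20.55 points in radial glia or astrocyte-like cells was -31.03 at 5 or more UMIs, -12.14 at 12 or more, -50.33 without thinning, -26.31 with all 40 members, -15.33 without the cluster led by G2/M genes and -23.65 to -17.44 without 1 library. The -15.33 averages unlike DIV3 shares of 27.1% and 6.04%, since DIV3 replicate 1 had few cells in that cluster.

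Signs turned mainly in values near 0. In radial glia or astrocyte-like cells at DIV7, E2f1 was -1.41 to 0.0544 without 1 library. Cdkn1a was -0.44 with cell cycle genes kept and -0.45 to 0.59 without 1 library. Cdkn1b was 0.0761 with total counts, 0.0297 with cell cycle genes kept, 0.0684 without the G2/M cluster and -0.43 to 0.40 without 1 library. Cdkn2a was -0.18 without the G2/M cluster and -1.35 to 1.02 without 1 library. Cdkn2b was -0.0654 with no filter, -0.0107 with DESeq2 size factors, -0.00650 with DESeq2's test, -0.0165 with top doublet scores removed, -0.17 with thinned cells, -0.22 with cell cycle genes kept, -0.0311 without the G2/M cluster and -0.65 to 1.195 without 1 library. Cdkn2c was 0.0403 with total counts, 0.17 with the stricter filter, 0.15 with cell cycle genes kept and -0.63 to 0.21 without 1 library. In these cells at DIV3 relative to DIV1, Mcm6 was 0.00666 with the stricter filter. Mcm7 was 0.0338 with no filter, 0.0922 with total counts, 0.26 with the stricter filter, 0.0304 at Leiden resolution 2, 0.0937 with cell cycle genes kept and -0.0893 to 0.0477 without 1 library. In glutamatergic neuron-like cells at DIV7, Slbp was 0.23 with the stricter filter and -0.52 to 0.12 without 1 library. Over all cells at DIV7, E2f1 was 0.0567 with the stricter filter. Over all cells at DIV3, Cdkn1b was -0.58 to 0.17 without 1 library. In oligodendrocyte lineage-like cells at DIV5, Pclaf was -0.22 with cell cycle genes kept. Mcm6 was -0.21 with cell cycle genes kept. Rrm2 was -0.28 with cell cycle genes kept. Gmnn was -0.86 with cell cycle genes kept. Between glia and neurons, Gins1 was 0.12 with no filter, 0.25 with the stricter filter and -0.14 to 0.0267 without 1 library. Orc6 was 0.15 with the stricter filter. Prim1 was -0.0956 without the G2/M cluster. Dut was 0.16 with no filter, 0.00760 with DESeq2 size factors, 0.00283 with DESeq2's test, 0.42 with the stricter filter, 0.0407 at Leiden resolution 2, 0.00519 with cell cycle genes kept and -0.12 to 0.14 without 1 library. Among all other values of named genes, 3046 kept direction and side of the threshold, 463 lost a call and 169 gained one.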

Other observations

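Cells of 1 unnamed cluster led by the dentate granule genes Prox1 and Neurod1 were present on every day, 1747 cells in all, and 0.0647% of 1546 of them carried S-phase transcripts. GABAergic neuron-like cells had 1 carrying cell of 56 at DIV1 (1.79%), and 1 of 29 (3.45%) and 0 of 24 in the DIV3 libraries. They had 0 of 80 and 1 of 62 at DIV5, and 0 of 42 in DIV7 replicate 1. Each nonzero share rests on 1 cell, and the exact interval of the 3.45% runs from 0.0873% to 17.8%. Of the genes in other lists, the E2F-type promoter words were found in 53.3% of 15 matched Rb, E2F and D-type cyclin genes, 33.3% of 45 other replication genes, 16.7% of 6 kinase inhibitors and 5.26% of 38 G2 and mitosis genes.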
